A study of Mus musculus with 8 samples.

Results

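The genes described are 10 that take part in making or discharging the oily product of the sebaceous gland: the fatty acyl reductases Far2 and Far1, the short-chain dehydrogenases Sdr16c6 and Sdr16c5, the wax synthases Awat1 and Awat2, the desaturases Scd1, Scd3 and Fads2, and the duct keratin Krt79. They were picked by symbol from the 22564 genes of an mRNA table of mouse skin, and each symbol stood in exactly 1 row. The choice was made with the difference between irradiated and nonirradiated skin already known, so that difference is given for these 10 genes as a description with no test. The table holds 8 libraries in 2 groups of 4. The animals were male C57 mice (strain label C57Bl/6), 4 weeks of age, kept under SPF conditions. Irradiated skin had been given 35 Gy at once, from a 6 MeV electron accelerator at 750 cGy per min, and was taken 24 h afterwards. Nonirradiated skin came from areas outside the treated field. The labels do not say whether the libraries are from different mice, whether both areas of a mouse were used, or which part of the body was sampled, so p-values measure only the spread between these libraries, which may be technical.

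The sebaceous gland opens into the hair follicle. Its cells fill with lipid and burst to release sebum, which in the mouse is rich in wax esters, sterol esters and triglycerides. A wax ester is made by reducing a fatty acyl-CoA to a fatty alcohol, the step of FAR1 and FAR2, and joining the alcohol to another acyl-CoA, the step of the wax synthases AWAT1 and AWAT2. Stearoyl-CoA desaturases place a double bond in the chains beforehand, and mice without Scd1 have shrunken sebaceous glands. FADS2 is the delta-6 desaturase, which starts the synthesis of long polyunsaturated fatty acids. SDR16C5 oxidises retinol, and Sdr16c6 is its close relative next to it in the mouse genome. KRT79 marks the cells of the sebaceous duct and of the upper hair canal.

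Promoter windows of Far2 and Sdr16c6, the members past the limma threshold, and of Far1, the paralogue whose groups overlapped, are printed so that the start regions can be compared. They come from RefSeq on GRCm38.p6, hold 250 bases before and 50 after the annotated start, and read 5′ to 3′ on the strand of the gene. Capitals mark CCAAT boxes on either strand (CCAAT or ATTGG). The windows are chr6:148047166-148047465 on the plus strand for Far2, chr7:113513584-113513883 on the plus strand for Far1 and chr4:4077465-4077764 on the minus strand for Sdr16c6.
Far2: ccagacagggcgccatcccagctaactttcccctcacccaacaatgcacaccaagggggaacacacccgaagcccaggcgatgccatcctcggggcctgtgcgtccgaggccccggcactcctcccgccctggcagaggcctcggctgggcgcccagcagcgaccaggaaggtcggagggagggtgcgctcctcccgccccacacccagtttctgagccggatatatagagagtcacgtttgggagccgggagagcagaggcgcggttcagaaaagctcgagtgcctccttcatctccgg
Far1: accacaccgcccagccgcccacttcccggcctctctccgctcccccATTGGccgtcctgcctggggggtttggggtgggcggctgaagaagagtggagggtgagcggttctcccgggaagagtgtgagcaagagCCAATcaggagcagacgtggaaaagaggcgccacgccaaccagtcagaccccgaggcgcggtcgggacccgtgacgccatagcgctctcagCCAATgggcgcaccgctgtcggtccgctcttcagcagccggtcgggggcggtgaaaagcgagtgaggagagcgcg
Sdr16c6: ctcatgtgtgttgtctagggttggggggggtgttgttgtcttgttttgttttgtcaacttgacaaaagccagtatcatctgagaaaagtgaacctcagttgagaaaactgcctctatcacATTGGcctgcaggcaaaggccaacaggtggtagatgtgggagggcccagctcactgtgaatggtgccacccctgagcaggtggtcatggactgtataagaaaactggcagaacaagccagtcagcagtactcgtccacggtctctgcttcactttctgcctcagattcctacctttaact

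The Far1 window had 3 CCAAT boxes, starting at positions -204, -116 and -25 from the start site, the Sdr16c6 window had 1 at -130, and the Far2 window had none. Of all 32851 promoter windows of this length, 37.4% held this motif. The GC content was 66.0% for Far2, 67.7% for Far1 and 49.3% for Sdr16c6, against a median of 52.7% over all windows. Windows were found for 8 of the 10 genes. None of those windows held the sterol regulatory element core TCACNCCAC (1.24% of all windows), the nuclear receptor element AGGTCA (16.3%), the E-box CACGTG (7.15%) or the TATA box TATAAA (13.6%), searched on both strands. These are matches of letters in a fixed window and are not evidence of binding or of its absence.

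The libraries differed in how much distinct RNA they appeared to hold. Reads recovered from the deposited counts lay between 5036276 and 6626648 per library, but genes with few reads piled up at 19.97 to 78.35 reads in irradiated libraries and at 4.49 to 15.6 reads in nonirradiated libraries, with no overlap. Reads divided by that number and rounded are called units here. That they count separate fragments is assumed, not shown, and their intervals include no error other than counting. Irradiated libraries held 75710 to 331994 units each and nonirradiated libraries 384705 to 1309517, so the same number of units is a larger share in irradiated skin. Irradiated replicates 1 and 4 held the fewest. In these bulk samples, fewer cells of a type and less RNA per cell cannot be told apart.

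Far2 showed the clearest separation of the groups. Its levels in irradiated replicates 1 to 4 were 70.9, 52.7, 66.3 and 69.8 FPKM (fragments per kilobase, scaled for library size), and in nonirradiated replicates 1 to 4 they were 15.5, 6.77, 9.05 and 12.2 FPKM. The lowest irradiated library was far above the highest nonirradiated one. The means were 64.9 ± 8.38 FPKM (SD, n = 4) and 10.9 ± 3.80 FPKM (SD, n = 4), a ratio of 5.96. The irradiated values were also tightly grouped, with a coefficient of variation of 12.9%. The fitted difference on log2(FPKM + 1) was 2.52 with an SE of 0.30.

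The Far2 gene (ENSMUSG00000030303) lies on chromosome 6, 148047259 to 148182758 on the plus strand of mm10 in GENCODE M21, and the span in the authors' deposited table, 148006580 to 148444389, is wider. Its level rested on 27, 42, 107 and 25 units in irradiated replicates 1 to 4 and on 26, 41, 63 and 23 units in nonirradiated replicates 1 to 4. Although the units per library were similar, the irradiated libraries were smaller, and over the groups Far2 made up 308 units per 1000000 (exact 95% Poisson interval 267 to 353) against 47.8 (40.5 to 56.0). The ratio of these shares was 6.44, with an exact 95% interval of 5.19 to 8.0. Far2 overlaps Ergic2 on the opposite strand over 3680 bp, and whether strand was used in counting is not given in the sources used here. Ergic2 itself had 101.9 FPKM in irradiated and 76.1 FPKM in nonirradiated skin, with overlapping groups.

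Far1, whose enzyme serves mainly the synthesis of ether lipids in many tissues, overlapped between the groups. Its levels in irradiated replicates 1 to 4 were 92.5, 97.8, 115.5 and 44.9 FPKM, and in nonirradiated replicates 1 to 4 they were 95.2, 60.0, 50.7 and 128.1 FPKM. The groups overlapped over most of their range. The means were 87.7 ± 30.2 FPKM (SD, n = 4) and 83.5 ± 35.4 FPKM (SD, n = 4), and the fitted difference was 0.08 on the log2 scale with an SE of 0.37. The sign was not stable: with median ratio scaling it was -0.05, and with quantile normalization -0.22. Far1 (ENSMUSG00000030759) lies on chromosome 7, 113513834 to 113571511. Its FPKM per deposited count varied between libraries, from 865 to 1500 counts per 100 FPKM, whereas that of Far2 stayed between 2870 and 2890. On units its ratio between groups was 1.26, with an interval of 1.02 to 1.55.

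Both reductases make fatty alcohols. Their ratio within a library is free of the library's scaling, though not of the varying FPKM per count of Far1. Far2 over Far1 in FPKM was 0.766, 0.539, 0.574 and 1.55 in irradiated replicates 1 to 4 and 0.163, 0.113, 0.178 and 0.0953 in nonirradiated replicates 1 to 4. The groups did not overlap. Far1 was the higher reductase in each nonirradiated library, and Far2 exceeded it in 1 irradiated library, replicate 4, where Far1 was at its lowest.

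**Figure D1:**
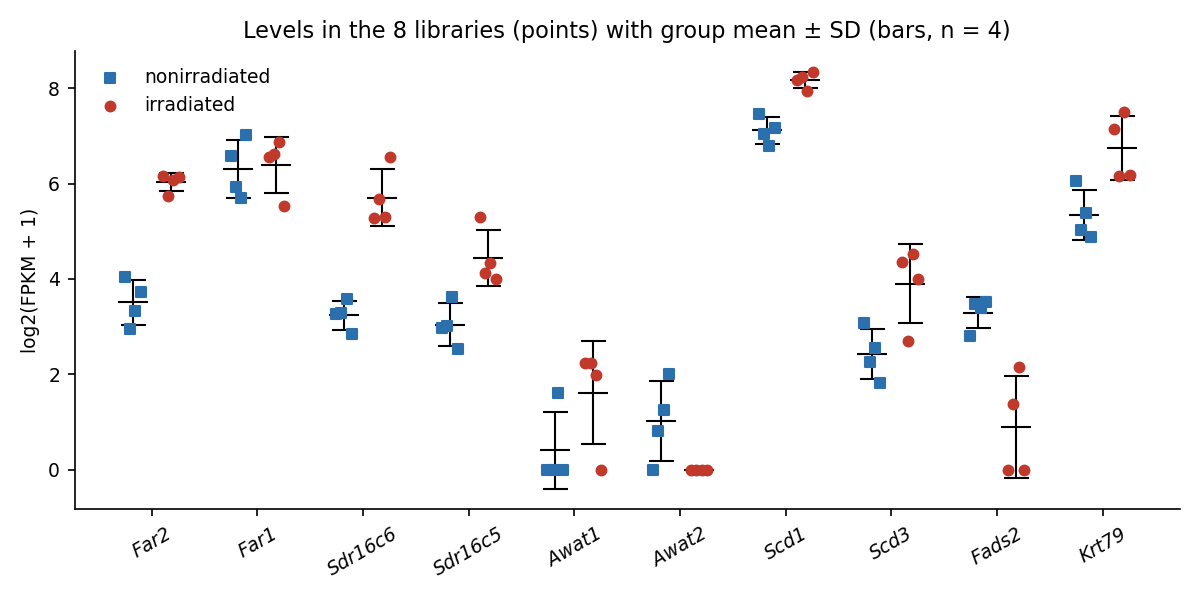
Level of each of the 10 genes on log2(FPKM + 1) in nonirradiated (blue squares) and irradiated (red circles) libraries, with the group mean ± SD as bars (n = 4 each). Far2, Sdr16c6, Sdr16c5, Scd1 and Krt79 are higher in all irradiated libraries, Fads2 is lower in all of them, and the groups of Far1, Awat1, Awat2 and Scd3 overlap.

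Sdr16c6 was also well separated between the groups. Its levels were 37.9, 50.5, 38.3 and 93.3 FPKM in irradiated replicates 1 to 4 and 8.54, 8.76, 10.9 and 6.13 FPKM in nonirradiated replicates 1 to 4. The groups lay far apart, with the widest spread within the irradiated group, where replicate 4 was highest. The means were 55.0 ± 26.2 FPKM (SD, n = 4) and 8.57 ± 1.94 FPKM (SD, n = 4), a ratio of 6.41, and the fitted log2 difference was 2.47 with an SE of 0.35. Over the groups it held 78 and 80 units, a ratio of shares of 4.78 with an interval of 3.45 to 6.61. Sdr16c6 lies on chromosome 4, 4055929 to 4077522 on the minus strand.

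Sdr16c5 lies beside it on the same strand, at 3995936 to 4019663. Its levels were 38.5, 16.5, 19.1 and 14.9 FPKM in irradiated replicates 1 to 4 and 6.88, 7.02, 11.4 and 4.81 FPKM in nonirradiated replicates 1 to 4. All irradiated libraries were above all nonirradiated ones, and replicate 1 stood above the other irradiated libraries. The means were 22.3 ± 11.0 FPKM (SD, n = 4) and 7.52 ± 2.76 FPKM (SD, n = 4), with a fitted log2 difference of 1.40 and an SE of 0.41. It rested on 21 units in irradiated skin and 42 in nonirradiated skin, which gave a ratio of 2.45 with an interval of 1.38 to 4.23.

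In FPKM, the neighbours were nearly equal in nonirradiated skin and mostly unequal in irradiated skin. Sdr16c6 over Sdr16c5 was 1.24, 1.25, 0.956 and 1.27 in nonirradiated replicates 1 to 4, against 0.983, 3.05, 2.01 and 6.25 in irradiated replicates 1 to 4. Irradiated replicate 1 fell inside the nonirradiated range, so these groups overlapped. The ratio of 6.25 in irradiated replicate 4 came from 17 units of Sdr16c6 and 1 unit of Sdr16c5. The FPKM per deposited count of Sdr16c5 also varied between libraries, from 706 to 1080 counts per 100 FPKM. Within groups the levels of the pair did not move together: the correlation of their deviations from the group means over the 8 libraries was -0.20. That correlation is a description, since the libraries share their depth and scaling.

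The wax synthases were at or near the limit of detection. Awat1, the enzyme that joins alcohols to acyl-CoA in human sebaceous cells, was listed at 3.72, 3.70, 2.94 and 0 FPKM in irradiated replicates 1 to 4 and at 0, 0, 2.04 and 0 FPKM in nonirradiated replicates 1 to 4. Irradiated replicates 1 to 3 were above every nonirradiated library, while replicate 4 shared the value of 0. These values came from 4 units in irradiated and 5 units in nonirradiated skin, and the ratio of shares was 3.92 with an interval of 0.778 to 18.2, so a difference was not detectable at this depth.

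Awat2, which also esterifies retinol, was listed at 0 FPKM in every irradiated library and at 0, 0.754, 1.37 and 2.99 FPKM in nonirradiated replicates 1 to 4. The values of nonirradiated replicate 1 and of all irradiated libraries were equal, and the other nonirradiated libraries were above them. All nonirradiated libraries together held 8 units, or 2.5 per 1000000. A count of 0 in irradiated skin allows up to 3 units over the group, or 4.59 per 1000000, the limit drawn in the plot of units, which is above the nonirradiated level, so no fold is given and a loss of Awat2 RNA was not detectable. Awat1 and Awat2 lie on chromosome X at 100572251 to 100578205 and 100402221 to 100442717. Awat2 overlaps Otud6a on the opposite strand over 873 bp.

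**Figure D2:**
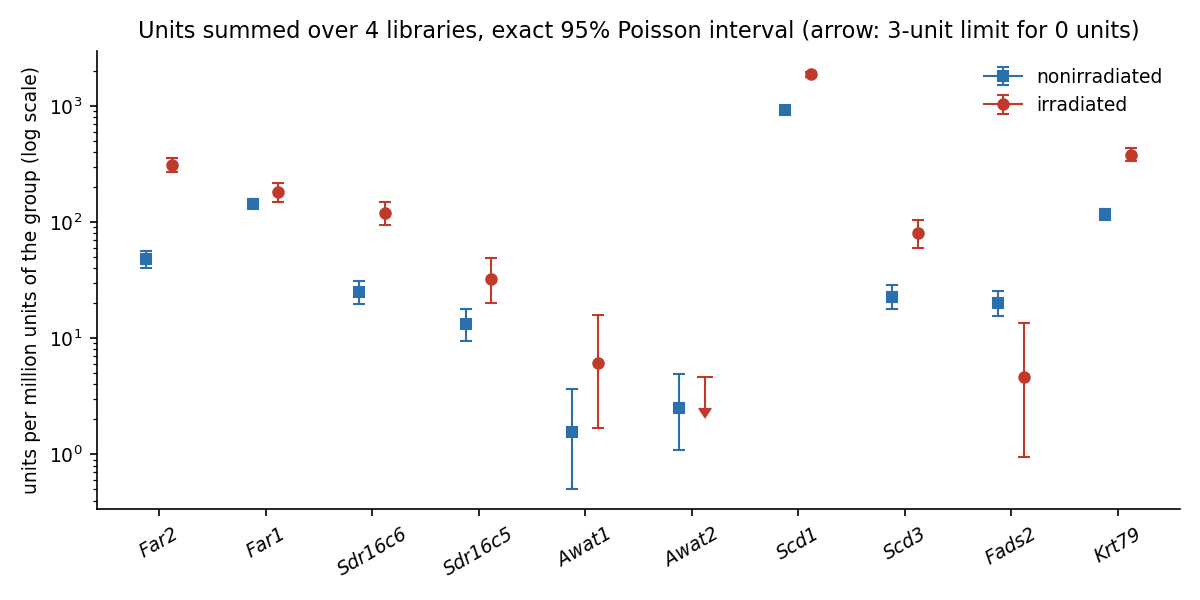
Share of each gene in the units of its group, scaled as the axis states and on a log axis, in nonirradiated (blue squares) and irradiated (red circles) skin, each summed over 4 libraries with an exact 95% Poisson interval that covers counting error only. The intervals are narrow for Scd1 (1215 and 2972 units) and wide for Awat1 (4 and 5 units), and Awat2 in irradiated skin, with 0 units, is drawn as the limit of 3 units (4.59).

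Scd1 was the most abundant of the 10 genes in both groups. Its levels were 286.7, 302.7, 246.0 and 325.1 FPKM in irradiated replicates 1 to 4 and 175.7, 131.3, 109.0 and 142.4 FPKM in nonirradiated replicates 1 to 4. The groups did not overlap. The means were 290.1 ± 33.4 FPKM (SD, n = 4) and 139.6 ± 27.8 FPKM (SD, n = 4), a ratio of 2.08, and the fitted log2 difference was 1.06 with an SE of 0.21. It also had the most units, 1215 and 2972, and hence the narrowest interval, with a ratio of shares of 2.0 from 1.87 to 2.14. Scd1 (chromosome 19, 44394455 to 44407879) shares 4.66% of the 50-base windows of its transcript with other genes, mostly Scd3, Scd2 and Scd4, so a small part of its reads may have been split among them.

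Scd3, the desaturase with a preference for shorter chains in mouse skin, was lower and more variable. Its levels were 19.5, 5.50, 22.1 and 15.05 FPKM in irradiated replicates 1 to 4 and 7.40, 3.80, 4.85 and 2.5 FPKM in nonirradiated replicates 1 to 4. Irradiated replicate 2 fell among the nonirradiated values and the other irradiated libraries lay above them. The means were 15.5 ± 7.29 FPKM (SD, n = 4) and 4.64 ± 2.08 FPKM (SD, n = 4), with a fitted log2 difference of 1.48 and an SE of 0.52. It shares 6.69% of its 50-base windows with other genes, the highest share of the 10. Scd3 lies on chromosome 19, 44203269 to 44244016.

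Scd2, a desaturase expressed in many tissues, was not chosen among the 10 and gives a contrast within the family. Its levels were 9.65, 17.8, 16.1 and 7.06 FPKM in irradiated replicates 1 to 4 and 45.5, 27.1, 17.8 and 29.8 FPKM in nonirradiated replicates 1 to 4. The groups met at 17.8 FPKM, and its fitted log2 change of -1.19 did not pass the test (limma adjusted p = 0.232). Within a library, Scd1 over Scd2 was 15.3 to 46.0 in irradiated skin and 3.86 to 6.13 in nonirradiated skin, with no overlap. Scd1 over Scd3 was 11.1 to 55.0 and 22.5 to 57.0, and these ranges overlapped.

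Fads2 was the only gene of the 10 with all irradiated libraries below all nonirradiated ones. Its levels were 0, 1.60, 3.45 and 0 FPKM in irradiated replicates 1 to 4 and 5.97, 10.1, 9.44 and 10.5 FPKM in nonirradiated replicates 1 to 4. The libraries at 0 were the 2 with the fewest units. The fitted log2 difference was -2.41 with an SE of 0.62, and it was -1.53 without irradiated replicates 1 and 4. Irradiated skin held 3 units in all and nonirradiated skin 64, so the shares were 4.59 per 1000000 (0.947 to 13.4) and 19.99 per 1000000 (15.4 to 25.5), and their ratio was 0.230 with an interval of 0.0462 to 0.703. Fads2 lies on chromosome 19, 10062765 to 10101746 on the minus strand.

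**Figure D3:**
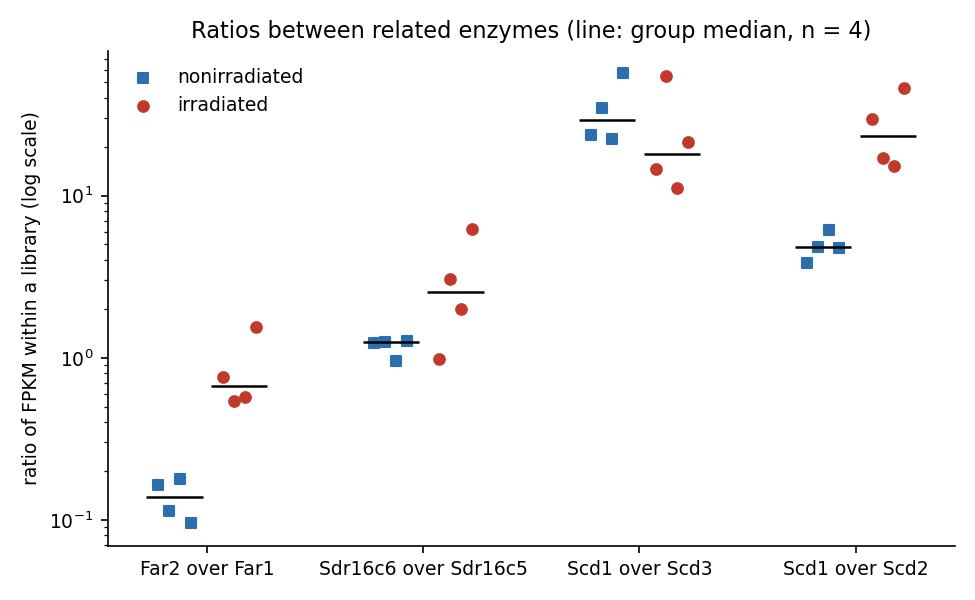
Ratios of FPKM between related enzymes within a library, on a log axis, with nonirradiated libraries as blue squares, irradiated libraries as red circles and the group median as a line (n = 4 each). Far2 over Far1 (medians 0.138 and 0.670) and Scd1 over Scd2 (medians 4.81 and 23.4) do not overlap between groups, whereas Sdr16c6 over Sdr16c5 and Scd1 over Scd3 do.

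Krt79, the keratin of the duct, had levels of 139.7, 70.9, 179.3 and 71.1 FPKM in irradiated replicates 1 to 4 and 65.4, 31.6, 40.9 and 28.3 FPKM in nonirradiated replicates 1 to 4. The groups did not overlap, but the lowest irradiated libraries were close to nonirradiated replicate 1. The means were 115.2 ± 53.6 FPKM (SD, n = 4) and 41.5 ± 16.8 FPKM (SD, n = 4), and the fitted log2 difference was 1.41 with an SE of 0.38. It rested on 248 and 372 units, with a ratio of shares of 3.27 from 2.77 to 3.85. Krt79 lies on chromosome 15, 101929332 to 101940324 on the minus strand. Krt17, a keratin of the same duct and follicle cells, had 402 ± 117 FPKM (SD, n = 4) in irradiated and 348 ± 43.3 FPKM (SD, n = 4) in nonirradiated skin, with overlapping groups (log2 change 0.17, limma adjusted p = 0.790).

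Ordered by mean level in nonirradiated skin, Scd1 came first, followed by Far1, Krt79, Far2, Fads2, Sdr16c6, Sdr16c5 and Scd3, with both wax synthases last. Neighbours in that order overlapped in their library values, except Krt79 and Far2. In irradiated skin the order was Scd1, Krt79, Far1, Far2, Sdr16c6, Sdr16c5, Scd3, Awat1, Fads2 and Awat2. Fads2 and Far2 were at similar levels in nonirradiated skin, and in irradiated skin every value of Far2 was above every value of Fads2. Neighbours in irradiated skin also overlapped, except Scd1 and Krt79, and Scd3 and Awat1.

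In limma on log2(FPKM + 1), 33 of 13324 tested genes (0.248%) differed at an adjusted p under 0.05, 16 of them higher (0.120%) and 17 lower (0.128%) in irradiated skin. All 10 genes averaged 0.5 FPKM or more and were tested. Far2 and Sdr16c6 were among the 16, and none of the 10 was among the 17. Non-overlap with higher irradiated values held for 5 of the 10 genes, against 3.99% of all tested genes, and with lower irradiated values for 1, against 4.48%. Since the genes were chosen on this contrast, these counts are a description and nothing is read from them. The median fitted log2 difference of the 10 was 1.30, and that of all tested genes was -0.11, with 43.9% above 0.

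The differences of the 10 genes kept their sign in the settings tried, Far1 excepted. Over up to 21 other settings, Far2 lay between 1.97 and 2.70 on the log2 scale, Sdr16c6 between 2.18 and 2.61, and Scd1 between 0.72 and 1.18. In limma, Far2 did not pass the threshold without nonirradiated replicate 2 or 3, and Sdr16c6 did not without irradiated replicate 2 or nonirradiated replicate 2, 3 or 4. Neither passed without irradiated replicates 1 and 4 together, where 9 of all genes did, or with a muscle index as a covariate, where none of the 13324 did (853 at an unadjusted p under 0.05). The count models used the same contrast, so they too describe the 10 genes and support nothing. DESeq2 on the deposited counts and edgeR on units each called 5 of them higher (Far2, Sdr16c6, Scd1, Scd3 and Krt79), beside 3.19% and 5.01% of all genes tested. edgeR on the deposited counts or on reads called 3 (Far2, Sdr16c6 and Scd1), beside 0.407%. None of these count models tested Awat2. edgeR on units tested only 5846 genes, and Sdr16c5, Awat1 and Fads2 were not among them. The libraries most alike in their commonest low read count were irradiated replicates 2 and 3 and nonirradiated replicates 1 and 4, a set chosen after seeing the data. Among these the difference was 2.03 for Far2, 2.45 for Sdr16c6, 1.37 for Krt79 and -1.40 for Fads2.

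**Figure D4:**
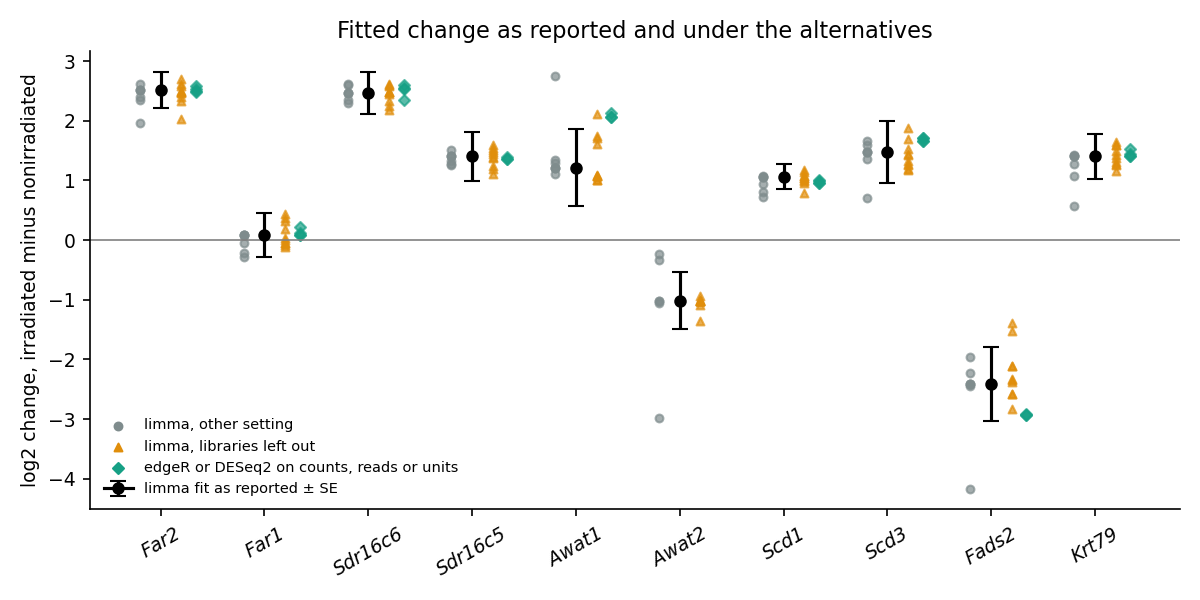
Fitted log2 difference, irradiated minus nonirradiated, of each gene as reported (black, ± SE) and under other limma settings (grey circles), with libraries left out (orange triangles) and with edgeR or DESeq2 on counts, reads or units (green diamonds). Far2 stays between 1.97 and 2.70 and Sdr16c6 between 2.18 and 2.61, Far1 lies on both sides of 0, and Fads2 ranges from -4.16 to -1.40.

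Skeletal muscle RNA was present in every library, and its summed level overlapped between the groups only through nonirradiated replicate 1. The other nonirradiated libraries lay below every irradiated library. The summed level of its 12 markers was 4510 to 7160 FPKM in irradiated and 1770 to 5580 FPKM in nonirradiated skin, where replicate 1 was the highest. Of these markers 11 had a fitted change above 0, and Myh1, a fast myosin heavy chain, rose (log2 change 3.37, limma adjusted p = 0.0208). The remaining marker, the fast myosin Myh4, named after its values were seen, was lower in all irradiated libraries, at 133 ± 59.9 FPKM (SD, n = 4) against 467 ± 224 FPKM (SD, n = 4), and did not pass (log2 change -1.83, limma adjusted p = 0.0912). With a muscle index as a covariate the log2 difference was 1.97 with an SE of 0.40 for Far2 and 2.61 with an SE of 0.54 for Sdr16c6. For Krt79 it was 0.58 with an SE of 0.46 and for Scd3 0.70 with an SE of 0.73. Of the other markers, the summed level of 8 adipocyte genes was 639 to 888 FPKM in irradiated and 422 to 550 FPKM in nonirradiated skin, with no overlap. Most of that sum was Car3 (425 and 282 FPKM) and Cfd (190.0 and 97.5 FPKM, named after its values were seen), while 4 of the 8 genes had a fitted change above 0 and 4 below, with a median of 0.13, and none passed in limma. The part of fat RNA in the results for Scd1, which adipocytes also express, was not tested.

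Most markers of the sebaceous gland itself had a fitted change above 0, but none passed the test. All 11 sebocyte markers were tested, and 10 had a fitted change above 0, with a median of 0.71. Their summed level was 200 to 365 FPKM in irradiated and 122 to 325 FPKM in nonirradiated skin, and the groups overlapped. The most abundant, Mgst1, a glutathione transferase of the membrane, had 81.8 ± 40.3 FPKM (SD, n = 4) and 47.4 ± 20.6 FPKM (SD, n = 4), with a log2 change of 0.71 (limma adjusted p = 0.491). Mc5r, the melanocortin receptor of sebaceous cells, named after its values were seen, was the marker below 0, with 1.59 ± 2.11 FPKM (SD, n = 4) in irradiated and 4.50 ± 3.56 FPKM (SD, n = 4) in nonirradiated skin (log2 change -1.10, limma adjusted p = 0.613). Summed duct and infundibulum markers were 483 to 915 FPKM and 509 to 657 FPKM, with overlapping groups. Of the 6 tested, 4 had a fitted change above 0 and 2 below, with a median of 0.17, and none passed in limma. The protease inhibitor Cst6, named after its values were seen, had 59.2 ± 12.2 FPKM (SD, n = 4) and 20.99 ± 3.57 FPKM (SD, n = 4). Its groups did not overlap (log2 change 1.44, limma adjusted p = 0.0581).

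Markers of other cells of the skin moved in different directions. Of 7 hair follicle markers tested, all had a fitted change below 0, and the root sheath keratins Krt28 (log2 change -2.97, limma adjusted p = 0.00870) and Krt71 (-1.60, adjusted p = 0.0312) fell. The summed level of that list was 134 to 376 FPKM in irradiated and 642 to 884 FPKM in nonirradiated skin. Basal keratinocyte markers, led by Krt5, summed to 2080 to 3900 and 1580 to 2160 FPKM, and suprabasal markers, led by Krt10, to 746 to 1310 and 493 to 705 FPKM. In the suprabasal list Krt10 and Krt1 carried the sum, 4 of the 6 genes had a fitted change below 0 with a median of -0.23, and Ivl, named after its values were seen, was lower in all irradiated libraries (log2 change -1.33, limma adjusted p = 0.103). Krt5 and Krt10 were abundant in all 8 libraries, as the label skin requires. Not every epidermal marker was, since Krtdap, named after its values were seen, was listed at 3.28e-05 FPKM in irradiated replicate 4. The part of the shifts of all these markers in the levels of the 10 genes was not tested.

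The genes around the 10 were taken from 6 lists of the same pathways, with 69 genes of which 68 were in the table and 60 were tested. In limma none passed the adjusted threshold, which 0.248% of all tested genes passed. An unadjusted p under 0.05 was found for 11 of the 60, beside 1718 of all 13324 tested genes. Groups did not overlap with higher irradiated values for 5 of them (8.33%, against 3.99% of all tested genes) and with lower values for 3 (5.0%, against 4.48%). The 5 were Dgat2l6, Me1, Hsd17b12, Aldh1a1 and Srebf1, and the 3 were Fads1, Acaca and Crabp1.

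Ether lipid synthesis uses the fatty alcohols that FAR1 makes. Of its 6 tested genes, 3 had a fitted change above 0 and 3 below, with a median of 0.04. Agps, the enzyme that puts the fatty alcohol into the ether lipid, had 38.6 ± 11.5 FPKM (SD, n = 4) in irradiated and 18.005 ± 7.45 FPKM (SD, n = 4) in nonirradiated skin, with a log2 change of 1.10 that did not pass (limma adjusted p = 0.266) and was 0.24 by edgeR on the deposited counts. Gnpat, which starts the pathway in the peroxisome, was fitted at -0.60 on the log2 scale (limma adjusted p = 0.715). Tmem189, the plasmalogen desaturase, had 1.04 (limma adjusted p = 0.392), but shares 18889 bp with the gene Gm20431 on the same strand, so its value is uncertain.

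Among the acyltransferases that esterify sterols, glycerides and alcohols, 4 of 5 tested genes had a fitted change above 0, with a median of 0.58. Dgat2l6, a relative of the wax synthases, was at 2.25, 4.38, 2.96 and 10.9 FPKM in irradiated replicates 1 to 4 and at 0, 0.479, 1.31 and 0 FPKM in nonirradiated replicates 1 to 4. Its groups did not overlap, but it rested on 12 and 9 units and did not pass (log2 change 1.98, limma adjusted p = 0.179). For Soat1, which makes sterol esters, the fitted log2 change was 0.80 (limma adjusted p = 0.467), and for Dgat2, which makes triglycerides, 0.58 (limma adjusted p = 0.606).

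The other desaturases leaned the opposite way, with 3 of 4 tested genes below 0 and a median of -0.62. Fads1, the delta-5 desaturase that acts after FADS2, was at 5.81, 3.59, 4.74 and 7.08 FPKM in irradiated replicates 1 to 4 and at 12.6, 11.8, 8.77 and 9.22 FPKM in nonirradiated replicates 1 to 4. Like Fads2 it had all irradiated libraries lowest, from 16 and 169 units, and did not pass (log2 change -0.89, limma adjusted p = 0.383). For Degs1, the dihydroceramide desaturase, the fitted log2 change was 0.71 (limma adjusted p = 0.592).

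Fatty acid supply gave 7 of 12 genes above 0 and a median of 0.32. Acaca, the carboxylase that commits acetyl-CoA to fatty acid synthesis, was at 12.6 ± 3.40 FPKM (SD, n = 4) in irradiated and 32.8 ± 17.1 FPKM (SD, n = 4) in nonirradiated skin, with no overlap (log2 change -1.23, limma adjusted p = 0.201). It overlaps Gm11437 on the opposite strand over 19126 bp. Hsd17b12, a reductase of the fatty acid elongation cycle, had 44.9 ± 13.3 FPKM (SD, n = 4) and 20.9 ± 10.1 FPKM (SD, n = 4), again with no overlap and in the other direction (log2 change 1.17, limma adjusted p = 0.272). Acsl1, which activates long fatty acids, had 0.57 (limma adjusted p = 0.393), and Acsl3 had -0.24 (limma adjusted p = 0.737). By edgeR on units, where 511 of 5846 tested genes passed, these 4 genes passed too. Their log2 changes there were -0.83 for Acaca, 1.09 for Hsd17b12, 0.70 for Acsl1 and -0.88 for Acsl3. Me1, the malic enzyme that supplies NADPH, was named for its non-overlapping groups and had 0.88 (limma adjusted p = 0.319).

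Retinoid metabolism, the setting of the SDR16C enzymes, was divided, with 8 of 17 tested genes above 0 and a median of -0.11. Aldh1a1, which turns retinal into retinoic acid, was at 30.7, 55.8, 38.5 and 62.6 FPKM in irradiated replicates 1 to 4 and at 21.2, 3.81, 9.91 and 8.54 FPKM in nonirradiated replicates 1 to 4. The groups did not overlap, and nonirradiated replicate 1 was the highest of its group. The log2 change was 2.17 ± 0.46 (SE), which missed the threshold (limma adjusted p = 0.0867), and it passed without nonirradiated replicate 1 (2.54, adjusted p = 0.0374). Crabp1, a retinoic acid binding protein, had a log2 change of -1.78 from 1 and 14 units (limma adjusted p = 0.210). Crabp2 (-0.34, adjusted p = 0.777) and the receptor Rarg (0.14, adjusted p = 0.895) were the most abundant of the list.

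Regulators of the gland had 11 of 16 genes above 0 and a median of 0.27. Srebf1, a transcription factor for lipid synthesis genes, was at 29.9, 35.6, 32.9 and 52.7 FPKM in irradiated replicates 1 to 4 and at 11.6, 8.87, 20.8 and 8.77 FPKM in nonirradiated replicates 1 to 4. Its groups did not overlap, with a log2 change of 1.57 ± 0.35 (SE) that did not pass (limma adjusted p = 0.0915). By edgeR on the deposited counts the change was 0.47, so the size depended on the unit. Sox9, a factor of follicle and sebaceous progenitors, had 0.30 (limma adjusted p = 0.779), and Cebpa -1.06 (limma adjusted p = 0.542).

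**Figure D5:**
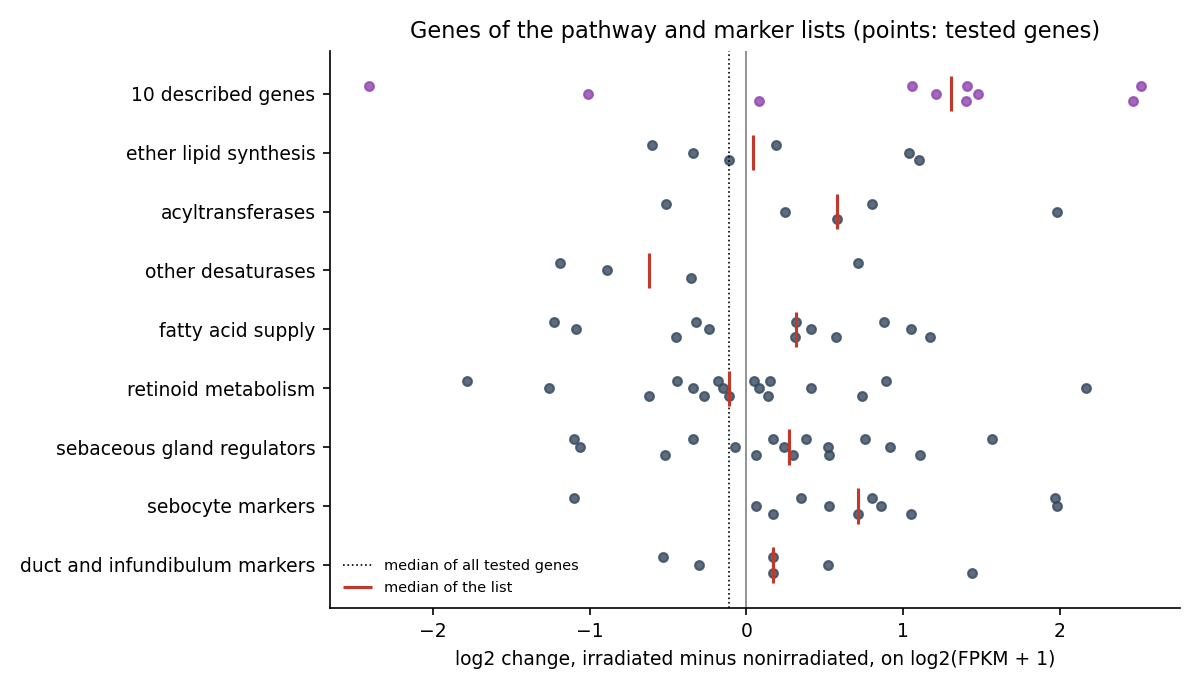
Fitted log2 change, irradiated minus nonirradiated, of each tested gene (points) in the 6 pathway lists, 2 marker lists and the 10 genes described, with the median of each list (red bar) and of all tested genes (dotted line, -0.11). The 10 genes, which were chosen on this contrast, have a median of 1.30, sebocyte markers 0.71 and the other desaturases -0.62.

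Within groups, some of the 10 genes varied together across the 8 libraries. After subtraction of the group means, Scd3 and Krt79 had a correlation of 0.83, Sdr16c5 and Awat1 of 0.66, and Far2 and Scd1 of 0.56. Awat1 and Scd1 had -0.64. Awat1 was listed at 0 FPKM in several libraries, so its correlations rest on few values. The pairs named were picked from all pairs of the 10 genes. Far1 and Sdr16c6 ran opposite to each other at -0.88. Irradiated replicate 4 was lowest for Far1 and highest for Sdr16c6 among irradiated libraries. Among nonirradiated libraries, replicate 3 was lowest for Far1 and highest for Sdr16c6, and replicate 4 was the reverse. Far2 and Sdr16c6 had -0.13. These are descriptions over 8 libraries that share depth and scaling.

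The genes whose levels were most like those of Far2 over the 8 libraries, among the 8034 genes averaging 5 FPKM or more, were Xirp2 (r = 0.994), Elovl4 (0.992), Nexn (0.990), Ccng1 (0.988) and Myom3 (0.988). Both groups enter that correlation, so it mostly ranks genes by how cleanly they separate the groups. The groups of several muscle markers, Myh1 among them, did not overlap either. With the muscle index as a covariate the log2 difference of Far2 was 1.97 with an SE of 0.40, down from 2.52 with an SE of 0.30. Far2 did not pass the threshold in that fit, where none of the 13324 tested genes did. The part of muscle RNA in these likenesses was not tested. Of the 10 genes, Scd1 was the most like Far2, at rank 28 with 0.955, followed by Sdr16c6 at rank 134 with 0.911, and Far1 had 0.169. For Sdr16c6 the most alike were Dnajb4 (0.979), Serpinb2 (0.975), Pofut2 (0.975), Cyb5 (0.971) and Npr3 (0.964).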

How the data were processed

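Total RNA of mouse skin was depleted of ribosomal RNA and sequenced from stranded libraries, per the labels' protocols. The authors deposited FPKM values and estimated counts per gene and library in one table, per the file headers. Per the submitters' processing notes the tools included HISAT2 2.0.4, cutadapt 1.9.3, Cuffdiff and Cufflinks, and the build was mm10, without roles or order. Which annotation was used, and whether counting used strand, is not given in the sources used here. Of 22565 rows, 1 was empty and left out.

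Samples were grouped by their labels. limma 3.58.1 in R 4.3.3 was fitted on log2(FPKM + 1), with trend and robust moderation, on the 13324 genes averaging 0.5 FPKM or more. Because of the pseudocount of 1, changes of low genes are understated. P-values were Benjamini-Hochberg adjusted over all genes tested, with a threshold of 0.05. The estimated counts, rounded, were used with edgeR 4.0.16 and DESeq2 1.42.0 as alternatives. In each library 92.62% to 96.6% of low counts were whole multiples of a step (within 0.02), which gave reads. The commonest low read count was the peak of genes per read between 3.5 and 300 reads, and reads divided by it and rounded gave units. The fits were run on simulated counts with 200 changed genes as a check of the code. The simulation did not copy the pile-up of low read counts, so it cannot give error rates for these libraries.

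Coordinates are from GENCODE M21, matched by identifier (96.79% of identifiers found). The 10 genes and all lists were chosen with earlier results of these data known. Text names the 10 genes, and from each pathway list called genes, or the 2 with the smallest p and the 2 highest; from each marker list, the highest gene and called genes where used; and the 5 genes most like Far2 and Sdr16c6. Exceptions are said to be named after their values. Alternatives were another pseudocount, other filters and scalings, a replicate block, a muscle index, count tests and leaving out libraries.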

Additional observations from a re-analysis of the deposited data

Results flagged for a closer look

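Awat1 in nonirradiated replicate 3 was listed at 2.04 FPKM, from 5 units, while the other 3 nonirradiated libraries were listed at 0. With 3 values at 0, Dixon's test at 95% singles out any value above 0, so its outcome was fixed. Replicate 3 held the most units of the 8 libraries, 1309517. The test singles out about 1 in 20 groups by chance, and 19 groups were examined.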

How the results depend on the processing

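The count of genes past the threshold was 33. It was 23 to 45 with another pseudocount, other filters, median ratio scaling or quantile normalization. It was 92 by edgeR on deposited counts and on recovered reads, 511 by edgeR on units and 749 by DESeq2. It was 0 with the muscle index as a covariate (853 at an unadjusted p under 0.05), 9 without irradiated replicates 1 and 4, and 0 for irradiated replicates 2 and 3 against nonirradiated 1 and 4, a set added after seeing the data (835 unadjusted). Leaving out 1 library gave 4 to 76 genes: 4 without nonirradiated replicate 2 or 3, 11 without nonirradiated 4, 76 without nonirradiated 1, 20 without irradiated 1 and 51 without irradiated 3. The replicate block gave 16. The labels do not say whether equal numbers mark a pair. Correlations of deviations were -0.013 to 0.09 for equal numbers, not highest for every own number, and -0.088 to 0.078 for unequal ones. All were small, which noise in shallow libraries could also give, so they cannot decide whether libraries were paired. The block is given as a check, and under it Far2 passed and Sdr16c6 did not. Of the pathway genes, 0 passed as reported, 5 by DESeq2, 6 by edgeR on units and 0 to 1 on leaving out 1 library; Scd2, Acaca, Acsl1 and Aldh1a1 were in both the 5 and the 6. Causes of these shifts were not tested. Among the 10 genes, Far1 was below 0 in 7 of 21 settings, and no other gene changed sign. Awat1, Awat2, Fads2 and the other genes with few units in irradiated skin are limited by depth.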
